A study of Mus musculus with 4 samples.

Results

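Keratinocytes carrying high levels of keratin 8 (Krt8) transcripts were examined in the epidermis of mice 1 day after ablation of ΔNp63. A cell barcode, the droplet label that stands for a cell, counted as Krt8-high when it held at least 5 Krt8 UMIs and at least 10 per 10000 of its UMIs, and no Ptprc, Krt20 or Atoh1 UMI. UMIs are molecular tags, each counted as 1 captured transcript. Barcodes also needed at least 1500 gene UMIs and at most 15% mitochondrial UMIs. Of the 32212 barcodes in the library, 30687 passed these 2 filters and 4350 were Krt8-high, out of 109216 barcodes in the whole series. They were compared with 12491 Krt8-low keratinocytes of the same library, which held under 3 Krt8 UMIs per 10000, at least 5 UMIs of Krt5 and Krt14 together and no Ptprc UMI.

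The series holds 4 single-cell RNA libraries of adult mouse back skin epidermis, 1 for each combination of genotype and time. All mice carried floxed ΔNp63 alleles (DNp63fl/fl) and received 200 mg/kg tamoxifen daily for 5 days by gavage. Ablated mice also carried K14-CreT2, a tamoxifen-dependent Cre recombinase that is active in basal keratinocytes and their follicular counterparts, while controls lacked it. Cells were taken 1 day or 1 week after ablation from mice aged 2 to 17 months, as many males as females. How many animals entered each library, and whether trypsin was used at 4 or 37 °C, is not given per library in the sources used here. Each group is 1 library, so the differences given here were not tested and have no replicates behind them. Intervals are exact, at 95%, and cover counting error only. The 1-day ablated library held 144323031 gene UMIs and the 1-day control library 179736563, and Krt8-high cells held a median of 4105.5 UMIs against 3723 in Krt8-low cells.

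Keratins 8 and 18 pair to form the intermediate filaments of simple epithelia such as gut and of the early embryonic surface layer. Adult basal keratinocytes use keratins 5 and 14 instead, suprabasal keratinocytes use keratins 1 and 10, and in adult skin keratins 8 and 18 mark Merkel cells, the touch receptor cells. The transcription factor p63, mainly its ΔN isoform, maintains the basal keratinocyte programme of stratified epithelia and is known to hold simple-epithelial keratins low.

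Krt8 (ENSMUSG00000049382) lies on the minus strand of chromosome 15 from 101996698 to 102004482 in build GRCm38. Krt18 (ENSMUSG00000023043) follows on the plus strand from 102028180 to 102032027, so that the genes point away from each other with 23697 bases between them. Their start regions are shown because the pair was detected together in these cells. The RefSeq start used lies 140 bases inside the GENCODE gene for Krt8 and 36 bases inside it for Krt18. Each run covers 250 bases before and 50 bases after the RefSeq start (GRCm38.p6), 5′ to 3′ on the gene's strand, and capitals mark matches to the TATA box (TATAAA) or to the E-box (CANNTG) on either strand.
Krt8, chr15:102004293-102004592, minus strand: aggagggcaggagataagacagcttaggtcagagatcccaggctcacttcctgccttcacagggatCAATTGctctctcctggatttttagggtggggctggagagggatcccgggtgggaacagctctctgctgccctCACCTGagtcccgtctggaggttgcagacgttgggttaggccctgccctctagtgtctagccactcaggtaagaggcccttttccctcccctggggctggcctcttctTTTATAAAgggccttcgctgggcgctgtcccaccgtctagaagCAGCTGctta
Krt18, chr15:102027966-102028265, plus strand: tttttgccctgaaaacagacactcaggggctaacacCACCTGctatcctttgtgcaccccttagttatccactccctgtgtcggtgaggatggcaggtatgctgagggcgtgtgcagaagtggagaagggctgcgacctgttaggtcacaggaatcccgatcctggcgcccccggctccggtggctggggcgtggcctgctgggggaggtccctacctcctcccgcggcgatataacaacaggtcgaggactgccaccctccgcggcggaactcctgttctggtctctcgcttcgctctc
The Krt8 window held the TATA box on both strands in 1 overlapping run and 3 E-boxes, and the Krt18 window held 1 E-box and no TATA box. The TATA box occurred in 13.6% and the E-box in 72.3% of the 32851 RefSeq windows of this length. The AP-1 sequence TGANTCA (7.81% of windows), the GC box CCGCCC (35.7%) and the p53-family core, 2 copies of CATG with 6 bases between them (0.712%), had no match in either window on either strand. These are letter matches only and say nothing of binding.

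Krt8-high cells made up 14.6% (14.16% to 14.96%) of the 29890 Ptprc-free barcodes that passed in the 1-day ablated library. In the 1-day control library the same rule found 2 of 26903 barcodes (0.0074%). The Krt8 values that chose the cells had a median of 22.2 UMIs per 10000, with the middle 50% between 15.6 and 32.3 and a highest value of 139. The median Krt8 count was 9 UMIs. A further 4942 keratinocytes lay between the limits of 3 and 10 per 10000, and among Krt8-low cells 82.5% had no Krt8 UMI against 99.7% in the control. The limit of 5 UMIs kept out 1303 barcodes that reached 10 per 10000, so the shallowest cells had to hold more Krt8 per UMI to be counted. Just below the limit, 158 barcodes at 9 to 10 per 10000 had Krt18 at 72.7 CPM and Trp63 at 70.4 CPM. The 183 barcodes at 10 to 11 per 10000 had Krt18 at 88.2 CPM and Trp63 at 67.0 CPM. CPM is the number of UMIs per 1000000 in the summed barcodes of a group. Cells on both sides of the limit were thus close to each other in both genes.

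**Figure D1:**
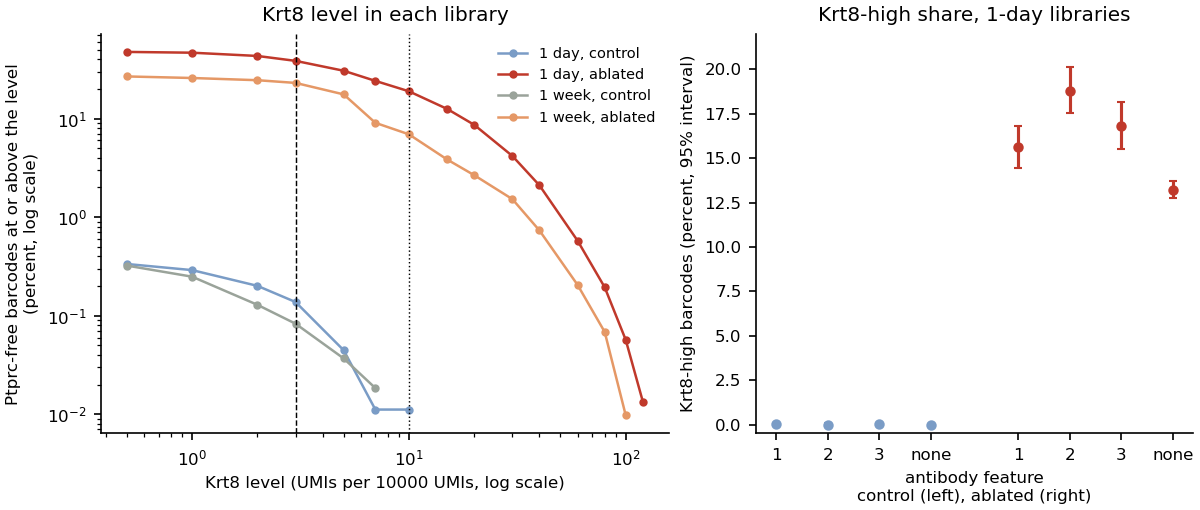
The left panel gives, for each library, the percent of Ptprc-free barcodes at or above each Krt8 level (both axes on a log scale, with dashed and dotted lines at 3 and 10 UMIs per 10000). The right panel gives the percent of Krt8-high barcodes by antibody feature in the 1-day libraries with 95% intervals, between 13.2% and 18.8% in the ablated and under 0.02% in the control library.

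The 1-day libraries also hold counts of 4 antibody hashtags, the last nearly empty, and the labels do not say what each stands for. A barcode was given to a hashtag when that feature, relative to its library median, was at least 2 times the next, which left 64.7% of passing barcodes unassigned in the ablated and 39.8% in the control library. Krt8-high cells made up 15.6% (14.4% to 16.8%) of hashtag 1, 18.8% (17.5% to 20.1%) of hashtag 2 and 16.8% (15.5% to 18.1%) of hashtag 3. Unassigned barcodes had 13.2% (12.7% to 13.7%). All 3 hashtags held such cells, and the intervals of hashtags 1 and 2 do not overlap. The single-feature values below are given as a look within the library, not as replicates.

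Krt18, the filament partner of Krt8, was at 181 CPM in Krt8-high cells, at 13.7 CPM in Krt8-low cells and at 1.12 CPM in Krt8-low control cells. Its log2 ratio of Krt8-high over Krt8-low was 3.72 (3.61 to 3.83), and 3.45, 4.11 and 3.79 within the 3 hashtags. After each cell was thinned to 1500 UMIs, 21.4% of Krt8-high cells had a Krt18 UMI, against 2.14% of Krt8-low and 0.153% of Krt8-low control cells. Without thinning the shares were 41.5%, 5.17% and 0.596%. As a background for free RNA, 1 of 35 immune barcodes (at least 3 Ptprc UMIs and under 5 of Krt5 and Krt14) held Krt18, or 2.86% (0.0723% to 14.9%), at a median depth of 2924 UMIs. Over those immune barcodes Krt8 was at 162 CPM, with 15 of its 20 UMIs in 1 barcode, and Krt18 at 8.11 CPM. In Krt8-high cells Krt8 was at 2378 CPM, a level that the rule itself set high, and Krt18 at 181 CPM. Only Krt18 can be read against this background. Over all 69 immune barcodes, with any level of Krt5 and Krt14, Krt8 was at 399 CPM and Krt18 at 33.7 CPM. The Krt18 share of Krt8-low cells thus lay within the immune background at this depth and that of Krt8-high cells lay above it. Other simple-epithelial keratins did not go with Krt18: Krt7 was at 1.48 against 4.11 CPM, Krt23 at 31.6 against 60.2 CPM, and Krt19 had 2 UMIs in all Krt8-high cells.

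The cells carried keratinocyte markers. At 1500 UMIs, 93.2% of them had at least 2 UMIs of Krt5 or Krt14, although the rule asked for neither gene. The 35 immune barcodes give no background here, since they were chosen to hold few UMIs of both. Among all 69 immune barcodes, 34 (49.3%) held at least 5 UMIs of Krt5 and Krt14 without thinning, against 93.8% of Krt8-high cells. The source of these keratin UMIs in immune barcodes was not tested. Krt5 stood at 1283 CPM and Krt14 at 6154 CPM in Krt8-high cells, against 1209 and 3924 CPM in Krt8-low cells, which had been selected on these genes. At least 2 thinned UMIs of both the basal pair and the suprabasal pair Krt1 and Krt10 were counted in 64.2% of Krt8-high and 51.3% of Krt8-low cells, and of the basal pair alone in 29.0% and 42.8%. For the suprabasal pair taken by itself the shares were 70.4% and 56.4%, and 28.6% (14.6% to 46.3%) in the immune barcodes (unthinned 86.8%, 70.4% and 40%), so that both groups lay above the immune interval. Only 269 of the 4350 held under 5 UMIs of Krt5 and Krt14. In these, Krt18 was at 49.9 CPM and Crip1, a small LIM-domain protein gene, at 493 CPM, against 187 and 1673 CPM in the other 4081. Krt10 was at 6678 CPM in the 269 cells and at 4093 CPM in the others.

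Markers of other cell types were low. Of 16 Merkel cell genes Krt20 and Atoh1 were at 0 by the rule. Of the other 14, 7 had no UMI among the 21577615 of Krt8-high cells, including Sox2, Isl1, Insm1 and Pou4f3, and most were near 0 in Krt8-low cells too. The list summed to 3.43 CPM, of which the peptide hormone gene Cck made up 2.78 CPM. The same barcodes had 24.3 CPM of 7 T cell genes (24.1 in Krt8-low and 2813 in immune barcodes) and 422 CPM of 8 Langerhans cell genes (616 and 28725). Melanocyte genes summed to 10.8 CPM against 21.6, fibroblast genes to 4.91 against 22.5, and endothelial and mural genes to 0.973 against 3.07. No gene of the T cell, Langerhans, melanocyte, fibroblast or endothelial lists was at 0. Haemoglobin Hbb-bs was concentrated in a few barcodes: 10 of them held 98.4% of its 817 UMIs in Krt8-high cells. The part of such RNA in the results was not tested.

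Trp63 (ENSMUSG00000022510; chromosome 16, 25683763 to 25892102, plus strand), whose ΔN isoform was targeted, was at 428 CPM in Krt8-low control cells, at 156 CPM in Krt8-low ablated cells and at 68.2 CPM in Krt8-high cells. The immune barcodes held 40.5 CPM. The counts do not separate the isoforms. The log2 ratio of Krt8-high over Krt8-low was -1.19 (-1.27 to -1.11), and -0.93, -1.42 and -1.62 within the hashtags. At 1500 UMIs a Trp63 UMI was found in 8.69% of Krt8-high, 20.3% of Krt8-low and 45.4% of Krt8-low control cells, and in 5.71% of immune barcodes (unthinned 21.8%, 37.5%, 78.0% and 8.57%). The Krt8-high share lay within the interval of the immune background (0.700% to 19.2%), so how much of it came from the cells cannot be told apart at this depth. The ratio was under 2-fold in hashtag 1 and, at -0.95, when Krt8-low cells were taken without the limit on Krt5 and Krt14.

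Over the genes counted, Krt8-high cells were past 2-fold more often downward than upward. Among 11235 genes with at least 100 UMIs in both groups together, 141 (1.26%) were at least 2-fold higher and 855 (7.61%) at least 2-fold lower, with a median log2 ratio of -0.11. Of the summed UMIs, Krt8-low cells held 61577685 and Krt8-high cells 21577615. Sparse genes high in Krt8-low cells thus passed more easily, and their part in the downward excess was not tested. Among the 2792 genes with at least 50 CPM in the higher group that could be named, the median was 0.05. For scale, Krt8-low ablated over Krt8-low control cells had 3.81% of genes at least 2-fold higher and 1.69% lower. The comparison cells include cells of the hair follicle and sebaceous gland. Barcodes with at least 2 thinned UMIs of bulge genes, of sebaceous genes or of Krt79 were then left out of both groups, a choice made after seeing the data. With the 3469 Krt8-high and 5954 Krt8-low cells that remained, 437 genes were at least 2-fold lower and 112 higher. The limit of 100 UMIs was applied again to these smaller sums, so fewer genes were counted. These numbers are therefore not set against 855 and 141.

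Among genes with at least 50 CPM in the higher group, the highest ratios after Krt18 were led by Tnip3, which encodes an inhibitor of NF-κB signalling, at 78.9 against 16.4 CPM (log2 ratio 2.27, 2.16 to 2.38) and 4.69 CPM in Krt8-low control cells. The surface protein genes Ly6c1 and Ly6a, which belong to a family of close copies and are uncertain for that reason, were at 633 against 145 CPM and at 1100 against 280 CPM. Crip1 was at 1617 against 390 CPM, a log2 ratio of 2.05 (2.03 to 2.08), and immune barcodes held it at 1281 CPM. In the control library immune barcodes held Crip1 at 1184 CPM and Krt8-low cells at 163 CPM. The immune level of Crip1 is therefore not read as a free RNA background. Nppb, which encodes the natriuretic peptide BNP, was at 211 against 58.4 CPM and at 3.48 CPM in the control. It was found in none of the 35 immune barcodes, which allows a share of up to 8.57%, and was at 20.7 CPM over all 69. The stromelysin Mmp10 was at 62.4 CPM in Krt8-high, 18.3 CPM in Krt8-low and 8.55 CPM in control cells, and 6 UMIs in immune barcodes put it at 48.6 CPM there (17.8 to 106). All of these genes stood in the order control, Krt8-low, Krt8-high.

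Tslp and Cystm1 (222, 80.8 and 15.95 CPM in Krt8-high, Krt8-low and control cells, log2 ratio 1.46) stood in this order too. Mt4, Efemp1, Bmp3, Bcar3 and Il33 did not. Mt4, a metallothionein of stratified epithelia, was at 83.9 CPM in Krt8-high, 28.5 CPM in Krt8-low and 199.9 CPM in Krt8-low control cells. Efemp1, an extracellular matrix protein, was at 50.4, 14.8 and 19.9 CPM in the same order, and the signalling ligand Bmp3 at 56.5, 18.9 and 20.7 CPM. Bcar3, an adaptor protein gene, was at 51.3, 17.4 and 25.2 CPM (log2 ratio 1.56). In these 4 genes the Krt8-low cells lay below the control. Tslp and Il33 are described with the cytokines. All 15 genes with the highest ratios were at least 2-fold higher within each of the 3 hashtags. They had been picked by their ratios over these same cells, so this is not an independent check.

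**Figure D2:**
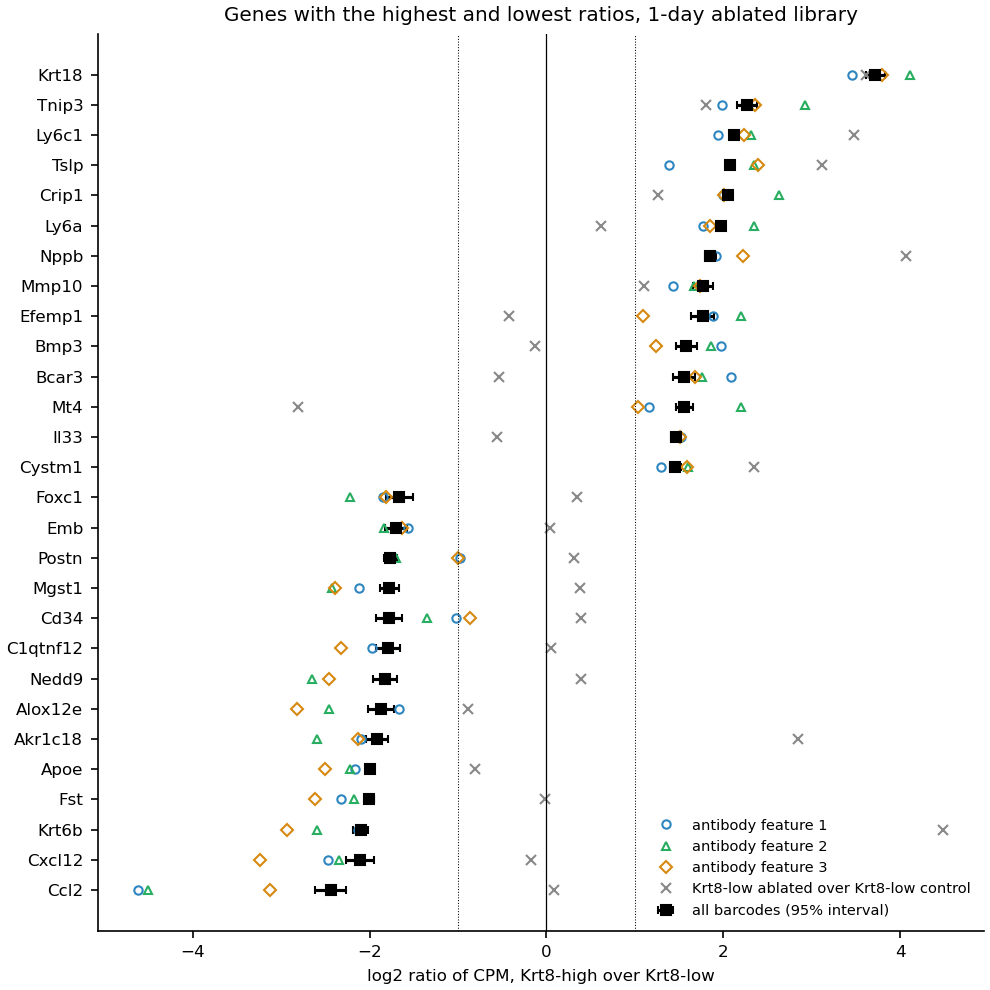
Log2 ratio of CPM, Krt8-high over Krt8-low, for 14 of the 15 genes with the highest and 14 of the 15 with the lowest ratios in the 1-day ablated library. Black squares are all barcodes with 95% intervals, open symbols the 3 hashtags, and crosses the ratio of Krt8-low ablated over Krt8-low control cells, which for Krt6b is 4.49 while its Krt8-high ratio is -2.10.

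At the other end, the chemokine Ccl2 was at 13.5 CPM in Krt8-high, 73.2 CPM in Krt8-low and 69.0 CPM in Krt8-low control cells (log2 ratio -2.44, -2.62 to -2.27). Within the hashtags its ratios were -4.62, -4.50 and -3.13, all outside that interval, so its size depends on which barcodes are taken. The chemokine Cxcl12 was at 15.7, 67.5 and 76.5 CPM (-2.11, with -2.47, -2.34 and -3.24 in the hashtags). Fst, which encodes the activin antagonist follistatin, was at 156 CPM against 625 and 634 CPM. Apoe, the lipid carrier apolipoprotein E, was at 1029 CPM against 4087 and 7166 CPM. For Ccl2, Cxcl12 and Fst the Krt8-low cells lay near the control and the Krt8-high cells lay apart. Akr1c18, a steroid-metabolising reductase, was at 14.2 CPM in the control, 102 CPM in Krt8-low and 26.9 CPM in Krt8-high cells. Among the others, Cd34 and Postn are genes of the hair follicle bulge list and Mgst1 of the sebaceous list. All 15 genes with the lowest ratios, picked from these same cells too, had values below 0 in each hashtag and 13 were at least 2-fold lower in each. Without cells holding follicle or sebaceous transcripts, Cd34 had -0.75 and Mgst1 -0.94, and the other 13 stayed at least 2-fold lower.

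The basal and adhesion list divided. Of 14 genes 4 were at least 2-fold lower and 0 at least 2-fold higher, against 7.61% and 1.26% of all genes. The median log2 ratio was -0.06 against -0.11 for all genes. Besides Trp63, the lower genes were Col17a1, a hemidesmosomal collagen (177 against 378 CPM, -1.10), Dst, a hemidesmosomal linker (119 against 258 CPM, -1.12), and Fras1 (5 UMIs in Krt8-high cells). Of the integrin genes, Itga3 was at 27.9 against 31.9 CPM (-0.19, -0.33 to -0.06, and 0.10 in hashtag 2), while Itgb1 was at 289 against 186 CPM (0.63, 0.59 to 0.68) and Itga6 at 545 against 404 CPM (0.43, 0.40 to 0.47). The laminin-332 gene Lama3 (0.62) and the linker Plec (0.57) were also above 0, Lamb3 had 0.07 and Itgb4 0.17. Itgb1 had 0.85, 0.79 and 0.71 within the hashtags and Itga6 0.52, 0.63 and 0.26. The median of the list was above 0 in each hashtag (0.29, 0.27 and 0.22) and, at 0.05, with totals scaled by the median ratio of all genes.

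Terminal differentiation genes were lower in Krt8-high than in Krt8-low cells in 15 of 18 counted genes, although the list's sum was higher. At least 2-fold lower were 4 of them, against 7.61% of all genes, and the median was -0.86 against -0.11 for all genes. In Krt8-low ablated over control cells the same list had a median of 1.72; both comparisons use the Krt8-low cells. Ivl, the cornified envelope protein involucrin, was at 30.3 against 78.5 CPM, and Hrnr (hornerin) at 37.0 against 92.6 CPM. Flg (filaggrin) was at 73.6 against 134 CPM and at 15.5 CPM in the control, and 10 cells held 54.7% of its UMIs in the Krt8-high group. Lor (loricrin) was at 269 against 505 CPM, with -1.09, -0.67 and 0.57 in the hashtags, so that its direction was not shared. Klk7 (2852 against 2390 CPM), a desquamation protease, Sprr1a (8593 against 6848 CPM), an envelope precursor, and Casp14 (64.3 against 58.1 CPM) had ratios above 0. Sprr genes are close copies and their single values are uncertain.

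Among spinous genes Krt1 was at 874 against 1381 CPM and Krt10 at 4215 against 5235 CPM, and Dsc1 (-1.19) and Krtdap (-1.01) were the 2 of 8 at least 2-fold lower. Mt4 was the 1 higher. Among all genes 7.61% were lower and 1.26% higher, and with so few spinous genes these counts are not read as a difference. Of the wound and companion-layer keratins, Krt16 was at 3371 CPM in Krt8-high, 2134 CPM in Krt8-low and 686 CPM in control cells, while its usual partner Krt6a was at 484, 1035 and 363 CPM and Krt6b at 58.3, 249.9 and 11.1 CPM. Krt6a and Krt6b are close copies, which makes each uncertain, but both were at least 2-fold lower. Krt17 was at 1583 against 2426 CPM.

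**Figure D3:**
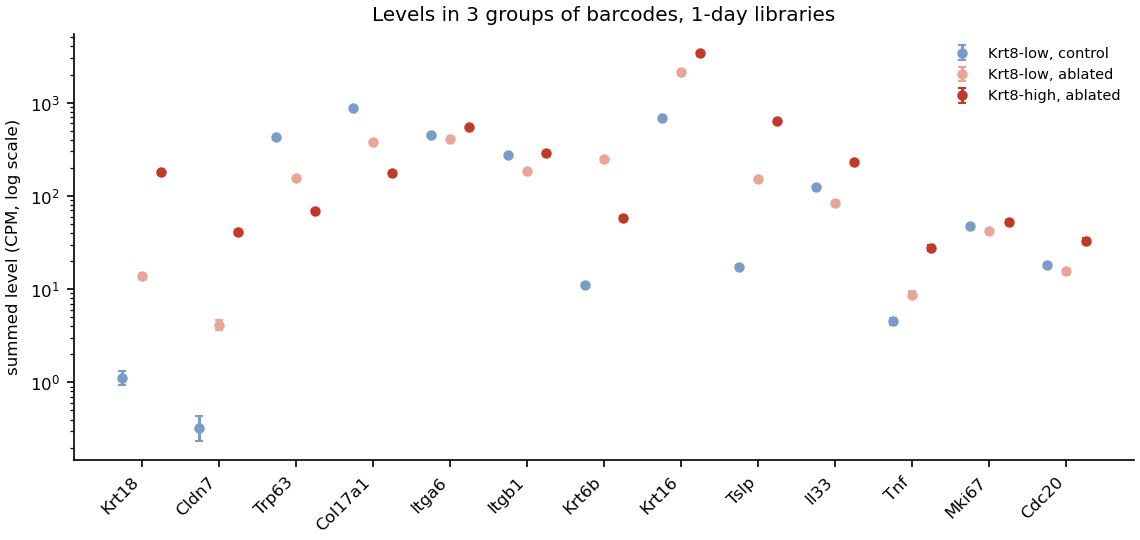
Summed levels in CPM (log scale) with 95% counting intervals in Krt8-low control, Krt8-low ablated and Krt8-high ablated cells of the 1-day libraries. Krt18 and Tslp step up through the 3 groups (1.12, 13.7 and 181 CPM for Krt18), Trp63 and Col17a1 step down, and Krt6b is highest in Krt8-low ablated cells.

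Hair follicle and sebaceous genes were mostly lower in Krt8-high cells. Among all genes 7.61% were at least 2-fold lower and the median was -0.11. Of 8 bulge genes 7 were at least 2-fold lower (median -1.77), among them Lgr5 (5.70 against 20.9 CPM, with -2.12, -1.31 and -0.60 in the hashtags), Lhx2 (12.5 against 42.9 CPM) and Sox9 (190 against 545 CPM), stem cell regulators of the follicle. Of 7 upper follicle genes 4 were at least 2-fold lower (median -1.32), including Krt79 at 224 against 670 CPM, and Plet1 stood the other way at 3425 against 2466 CPM. Of 7 sebaceous genes 5 were at least 2-fold lower (median -1.78). After cells holding these transcripts were left out the medians were -1.13, -0.81 and -0.32, although the exclusion used the same genes.

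**Figure D4:**
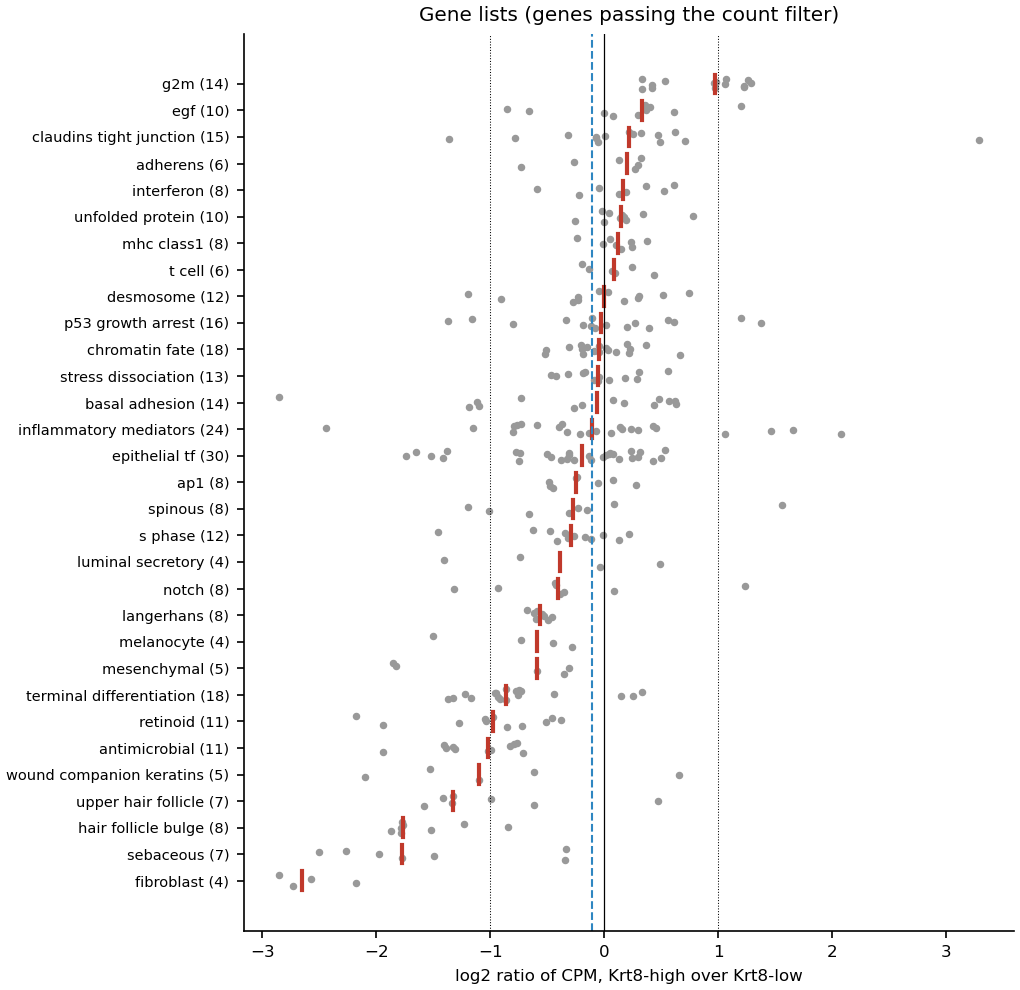
Log2 ratio of CPM, Krt8-high over Krt8-low, for the genes of each list (grey points, number of genes in brackets) with the list's median in red and the median of all genes, -0.11, as a blue dashed line. G2/M genes have the highest median of the lists shown (0.98) and the 4 fibroblast genes, which together with 2 not shown sum to 4.91 against 22.5 CPM, the lowest.

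The cell junction genes at least 2-fold different were Cldn7, Cldn8 and the desmosomal cadherin gene Dsc1, out of 15 tight junction, 12 desmosome and 6 adherens genes, a share near that of all genes (1.26% higher and 7.61% lower). Cldn7, a claudin of simple and glandular epithelia, was at 40.6 CPM in Krt8-high, 4.16 CPM in Krt8-low and 0.33 CPM in control cells, a log2 ratio of 3.29 (3.08 to 3.49), with 3.70, 4.14 and 3.27 in the hashtags. It lies on chromosome 11 from 69964779 to 69967885, plus strand. After thinning, 5.68% of Krt8-high and 0.74% of Krt8-low cells had a Cldn7 UMI, and none of the 35 immune barcodes did, which allows a share of up to 8.57% (unthinned 13.6%, 1.73% and 0%). Cldn4 followed at 498, 304 and 56.4 CPM (0.71), while Cldn1, the main epidermal claudin, was at 587, 609 and 599 CPM. Of 15 counted tight junction genes 1 was at least 2-fold higher and 1 lower (Cldn8, -1.36, with -2.03, -0.17 and -2.31 in the hashtags). The desmosome list had a median of -0.01 and the adherens list of 0.20, with E-cadherin Cdh1 at 655 against 543 CPM and the adhesion molecule Epcam at 1965 against 1567 CPM.

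Among 24 inflammatory mediators 4 were at least 2-fold higher and 2 lower, against 1.26% and 7.61% of all genes, with a median of -0.10 against -0.11. The count of lower genes was thus near that of all genes. Tslp, an epithelial alarmin, was at 636 CPM in Krt8-high, 151 CPM in Krt8-low and 17.4 CPM in control cells (log2 ratio 2.08, 2.04 to 2.12), with 1.38, 2.34 and 2.40 in the hashtags. It was not even across the cells: 1836 of 4350 held a Tslp UMI and 1 cell held 217 of the 13723 UMIs. The alarmin Il33 was at 231, 83.7 and 123 CPM, so that Krt8-high cells lay above and Krt8-low cells below the control, and its hashtag ratios lay between 1.49 and 1.52. Tnf was at 27.6, 8.75 and 4.51 CPM (1.66, 1.48 to 1.83), and immune barcodes held it at 72.9 CPM. Il1a was at 26.6, 12.8 and 2.29 CPM, with 0.37, 1.17 and 1.53 in the hashtags. Cxcl14, a chemokine, was at 305 against 679 CPM (-1.16), but its ratios within the hashtags, -0.56, -0.99 and -0.64, were under 2-fold. S100a8 (9.69 against 16.8 CPM) and S100a9 (9.13 against 15.5 CPM), damage-associated calcium binding proteins, were lower over all cells but had ratios of 1.46 and 1.34 in hashtag 1.

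Antimicrobial genes had ratios below 0 in 11 of 11, 6 of them at least 2-fold lower, against 7.61% of all genes. The median was -1.02 against -0.11 for all genes, and 4 of the 11 had a ratio above 0 within 1 hashtag. The beta-defensin gene Defb6 was at 313 against 783 CPM. Slpi, a secreted protease inhibitor, was at 169 CPM in Krt8-high, 276 CPM in Krt8-low and 3.88 CPM in control cells. Of 10 EGF family and receptor genes 1 was at least 2-fold higher and 0 lower, against 1.26% and 7.61% of all genes. With so few genes this count is not read as a difference from all genes. The 1 gene was the ligand Epgn, at 656 against 286 CPM and 128 CPM in the control. The median of the list was 0.33. The ligands Areg (378 against 248 CPM) and Hbegf (921 against 715 CPM) were above 0 and Ereg (65.0 against 102 CPM) below.

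Genes of mitosis were higher. All 14 G2/M genes had ratios above 0, 6 of them at least 2-fold, against 1.26% of all genes. Their median was 0.98 against -0.11 for all genes, and it lay between 0.89 and 1.35 over every alternative. Within single hashtags Birc5, Aurka and Bub1 each had 1 ratio below 0. The ubiquitin-conjugating enzyme Ube2c was at 77.8 CPM in Krt8-high, 31.8 CPM in Krt8-low and 39.6 CPM in control cells, the cyclin Ccnb1 at 16.3, 6.98 and 7.41 CPM, and the anaphase activator Cdc20 at 32.5, 15.5 and 18.1 CPM. Mki67 stood at 52.6, 41.9 and 47.2 CPM, a log2 ratio of 0.33. At 1500 UMIs, 7.03% of Krt8-high cells had at least 3 UMIs of the list, against 3.91% of Krt8-low and 4.25% of control cells, and 4 of the 35 immune barcodes did (11.4%, 3.20% to 26.7%; unthinned 11.2%, 8.46%, 9.10% and 17.1%). The immune barcodes held more of the list (430 CPM) than Krt8-low (235 CPM) or control cells (277 CPM). Their share is therefore not used as a free RNA background for these genes. The thinned shares of Krt8-high and Krt8-low cells had intervals of 6.29% to 7.84% and 3.57% to 4.26%, which cover counting error only. Of 12 S phase genes 2 had ratios above 0, with a median of -0.29 against -0.11 for all genes (0.08 in hashtag 2). At least 2-fold higher were 0 and lower 1 (Ung, a DNA repair enzyme), near the 1.26% and 7.61% of all genes. Nothing is read from these counts about the list. Pcna was at 109 against 109 CPM. In the 269 Krt8-high cells with few basal keratin UMIs, Cdk1 was at 1.96 CPM against 29.2 CPM in the others.

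Of 16 counted growth arrest genes 2 were at least 2-fold higher and 2 lower, against 1.26% and 7.61% of all genes, with a median of -0.03. With so few genes these counts are not read as a difference from all genes. Gadd45a, a stress-induced growth arrest gene, was at 203 against 78.3 CPM and 74.0 CPM in the control (1.38, 1.32 to 1.44), and Pmaip1, which encodes the death-promoting protein Noxa, at 123, 53.8 and 20.6 CPM. Cdkn1a, which encodes p21, was at 1335 against 1014 CPM. AP-1 genes had a median of -0.25, with Jun at 515 against 720 CPM and Fosl1 at 538 against 444 CPM. None of the 8 was 2-fold different, nor were any of the 13 dissociation stress (median -0.06), 10 unfolded protein (0.15), 8 interferon (0.16), 8 MHC class I (0.12) or 18 chromatin genes (-0.05). The genome organiser Satb1 had the highest ratio of the chromatin list, 30.8 against 19.4 CPM (0.66).

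Of 30 epithelial transcription factor genes 5 were at least 2-fold lower and 0 higher, against 7.61% and 1.26% of all genes, with a median of -0.20 against -0.11. Nothing is read from this count about the list. The lower ones were Sox7, Runx1, Sox9, Gata6 and Id2, and Runx1 was at 37.1 against 116 CPM. Klf4, a regulator of barrier formation, was at 420 against 702 CPM (-0.74) and Klf5 at 999.8 against 744 CPM (0.43). Elf3, a factor of simple and differentiating epithelia, was at 89.4 CPM in Krt8-high, 63.2 CPM in Krt8-low and 4.00 CPM in control cells. Of the 8 Notch genes the ligand Dll1 was at 88.4 against 37.5 CPM (1.24) and the ligand Jag1 at 22.8 against 56.6 CPM (-1.31), with a median of -0.40. Retinoid genes were below 0 in 11 of 11, 5 of them at least 2-fold, against 7.61% of all genes. The 5 included Fabp5 at 329 against 796 CPM. However, 4 of the 11 had a ratio above 0 within at least 1 hashtag (Aldh1a3 with 1.94 in hashtag 1). All 5 counted mesenchymal genes had ratios below 0, and Zeb2 was above 0 in hashtags 2 and 3. Vim was at 35.5 against 45.2 CPM and Snai2 at 6.35 against 22.6 CPM.

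Within the Krt8 range several genes followed Krt8 in order. Cells were divided into 5 levels of Krt8 (under 3, 3 to 10, 10 to 20, 20 to 40 and at least 40 UMIs per 10000), of 12491, 4942, 1838, 1884 and 628 barcodes with median depths of 3723, 3464, 4944, 3655.5 and 3383.5 UMIs. Krt18 was at 13.7, 52.4, 115, 210 and 396 CPM along these levels, and Cldn7 at 4.16, 12.7, 27.4, 50.2 and 70.1 CPM. Tslp was at 151, 246, 477, 744 and 1026 CPM, and Il33 at 83.7, 151, 203, 249 and 298 CPM. Each of these 4 was higher at every next level. Trp63 was at 156 and 91.2 CPM below the threshold and at 70.4, 66.7 and 63.2 CPM above it. Col17a1 was at 378, 229, 187, 178 and 122 CPM, while Itga6 was at 404 CPM at the lowest and 684 CPM at the highest level and Krt14 at 3924 and 8362 CPM. Krt8 itself sets the levels, and the genes share the cells and their depth. The levels under 10 also required at least 5 UMIs of Krt5 and Krt14. Those from 10 up required at least 5 Krt8 UMIs instead, so the levels differ in more than Krt8.

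**Figure D5:**
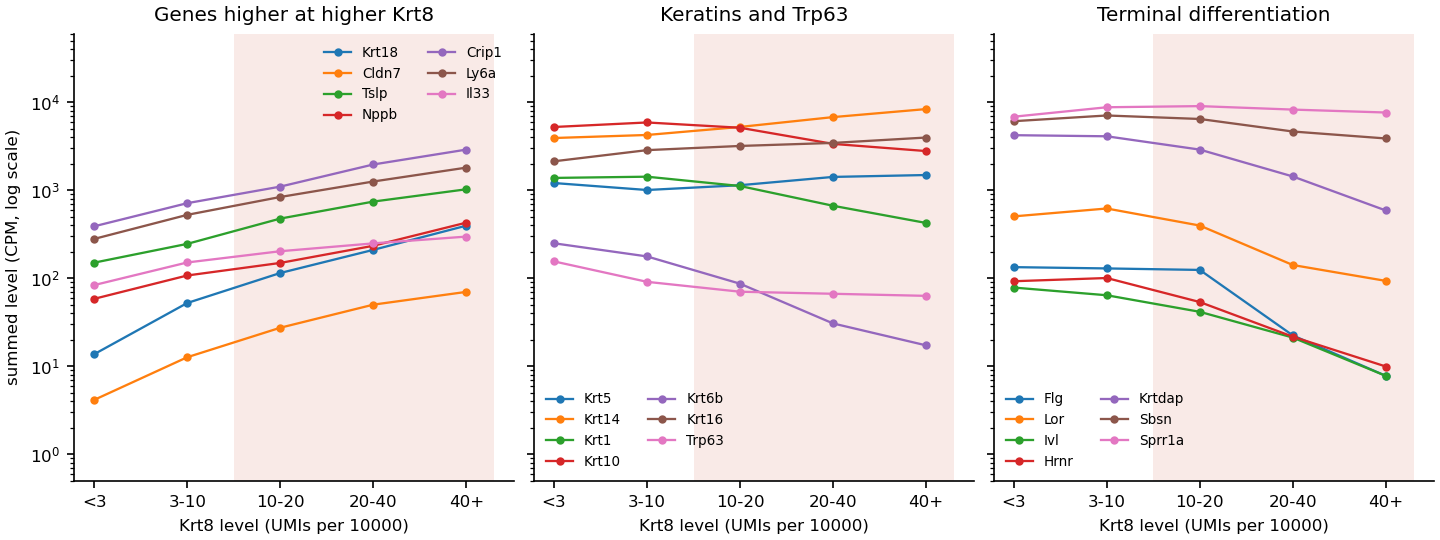
Summed level in CPM (log scale) at 5 levels of Krt8 in the 1-day ablated library, with Krt8-high cells shaded. Krt18, Cldn7 and Tslp are higher at each level (13.7 to 396 CPM for Krt18), Trp63 is nearly level within the shaded range, and Flg and Krtdap are lowest in the cells with most Krt8.

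The genes most like Krt8 were ranked by the ratio of cells with at least 40 to cells with 10 to 20 Krt8 UMIs per 10000, over 2742 genes. Hbb-bs ranked first, from few barcodes as given above, and was at 0.62 CPM in the level between. After it came Krt18 (log2 ratio 1.79), Nppb (1.52), Mt4 (1.42), Crip1 (1.40), Atp6v1g3, a proton pump subunit (1.36), Cldn7 (1.35), Ilvbl (1.14), Bcam, a laminin receptor (1.11), and Ly6a (1.11). At the opposite end stood Flg (-4.00), of whose Krt8-high UMIs 54.7% lay in 10 cells, Orm1 (-3.18), Hal, an enzyme of histidine breakdown in the upper epidermis (-2.86), Skint9 (-2.68), Hrnr (-2.43), Dapl1 (-2.38), Krt6b (-2.33), Krtdap (-2.30), Flg2 (-2.27) and Cnfn (-2.27). Several of these are products of the upper, differentiated layers. Krtdap was at 4225, 4104, 2897, 1434 and 589 CPM over the 5 levels, Krt1 at 1381, 1426, 1118, 667 and 425 CPM, and Krt16 had the opposite order at 2134, 2857, 3188, 3451 and 3973 CPM. Krt18 was detected in 36.8%, 42.6% and 51.9% of the 3 Krt8-high levels without thinning, at the median depths of 4944, 3655.5 and 3383.5 UMIs given above.

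At 1 week, libraries made with a 5′ kit, so that levels are not set against those at 1 day, held 362 Krt8-high cells of 10246 (3.53%, 3.18% to 3.91%) in the ablated and 0 of 10861 in the control library, which allows a share of up to 0.0276%. In them, against Krt8-low cells of their own library, Krt18 had a log2 ratio of 4.58, Cldn7 of 4.69, Tslp of 3.12, Il33 of 1.52 and Itga6 of 1.39, and Trp63 of -1.61. Their median depth was 11496 UMIs against 2202, a gap whose part in these ratios was not tested. In the 1-week ablated library 709 barcodes (6.92%) reached the Krt8 level of the rule, and the limit of 5 Krt8 UMIs kept out 347 of them. Shallow cells thus had to hold more Krt8 per UMI to be counted, which favours deep cells among the 362.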

How the data were processed

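The authors deposited, for each library, a matrix of raw UMI counts. Its header names Cell Ranger 5.0.1, and the submitters' processing notes also name build mm10 and Seurat. The 1-day libraries used a 3′ kit and the 1-week libraries a 5′ kit, per the labels' protocols. Mitochondrial genes were those named mt-. Antibody features were kept out of totals. Krt8-high and comparison barcodes were found by the rule given above, their counts were summed with Python 3.11.15, numpy 2.4.6 and scipy 1.17.1, and divided by the summed total to give CPM. Ratios have exact conditional binomial intervals, shares exact Clopper-Pearson intervals, both at 95%; the limit for a count of 0 is 3 counts. The ratio calculation and its interval were run on simulated sums with known ratios. These sums were drawn with counting error alone, as the interval assumes. The run thus does not show how the intervals do where few barcodes hold most UMIs of a gene.

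Genes counted in a list or total had at least 100 UMIs over both groups. Named genes were the 15 highest and 15 lowest ratios among those with at least 50 CPM in the higher group (without the genes of the rule, mt-, Rpl, Rps, Gm and Rik genes), and per list the 4 with most UMIs, the 4 with the largest ratios and those at 0. Of these, the text gives a selection, and some genes are not reported here. The cells, the 34 gene lists and the rules were chosen with earlier results of these data known. Thinning drew 1500 UMIs from each barcode. No doublet caller was run. Instead, barcodes above the 95th percentile of UMIs were left out as an alternative. The 1-day ablated library shared 299 barcode sequences with the 1-day control library, 41 of them Krt8-high. Positions are from GENCODE on GRCm38, start regions from RefSeq.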

Additional observations from a re-analysis of the deposited data

Results flagged for a closer look

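The 1-week ablated library, which enters no main comparison here, held Krt8-high barcodes by the same rule at 3.53% of Ptprc-free barcodes, above the 1-week control library, where the count was 0 of 10861.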

How the results depend on the processing

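No paired analysis was possible because each group is 1 library and the labels carry no replicate number. Alternatives were run for the main values in this paragraph, the named genes of highest and lowest ratio and the medians of 24 other lists. No such value past 2-fold changed sign. Other single genes, such as Cldn7 and Tnf, were not run under them and were looked at only within the hashtags. There some list genes past 2-fold changed sign, among them Cdkn2b and Dcn. The share of Krt8-high barcodes, 14.6%, was 18.5% with at least 3000 UMIs, 8.40% with at least 20 Krt8 UMIs per 10000, 13.7% with Krt5 and Krt14 required, and 15.6%, 18.8% and 16.8% in hashtags 1 to 3. The Krt18 ratio of 3.72 was 4.19 with the higher Krt8 limit, 4.01 without the Krt5 and Krt14 limit on the comparison, and 3.45 and 4.11 in hashtags 1 and 2. The Trp63 ratio of -1.19 was -1.08 with 3000 UMIs, -0.95 without the Krt5 and Krt14 limit, -1.28 without the deepest barcodes, -1.40 as a mean per barcode, -1.27 without mitochondrial and ribosomal protein genes, -1.08 with median scaling (a shift of 0.11 for all genes), -1.43 thinned, and -0.93, -1.42 and -1.62 in the hashtags. Genes at least 2-fold higher, 141, numbered 213 without the Krt5 and Krt14 limit and 1297 with genes of 1 or more UMI. Genes lower, 855, numbered 5075 with genes of 1 or more UMI. They numbered 375, 407 and 312 in the hashtags and 437 without cells holding follicle or sebaceous transcripts, and in each of these fewer genes are counted. The basal and adhesion median of -0.06 was 0.21 with 3000 UMIs, 0.09 with the higher Krt8 limit, 0.32 without the Krt5 and Krt14 limit, -0.19 as a mean per barcode, 0.29, 0.27 and 0.22 in the hashtags, and 0.26 without cells holding follicle or sebaceous transcripts. The terminal differentiation median of -0.86 was -1.40 with the higher Krt8 limit, -1.37 without the Krt5 and Krt14 limit, -0.95 without mitochondrial and ribosomal protein genes, -0.76 with median scaling, -1.09 and -0.36 in hashtags 2 and 3, and -1.20 without cells holding follicle or sebaceous transcripts. The cause of these moves was not tested unless stated. All 29 other named genes kept their sign under each of the 15 alternatives that apply to them, and Cd34 (hashtag 3), Postn (hashtag 1), and Cd34 and Mgst1 (without cells holding follicle or sebaceous transcripts) were there under 2-fold. The 29 had been picked by large ratios in these same cells, so a kept sign is not an independent check. Of 24 other lists, 15 kept the sign of their median under every alternative and 9, with medians between -0.29 and 0.22, did not. Leaving out barcode sequences shared with another library, like the follicle exclusion an alternative chosen after seeing the data, moved none of the main values beyond its interval. Depth limits statements on low genes, and with 35 immune barcodes the free RNA background is known only loosely.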

Other observations

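Chosen after their values were seen, other genes outside the lists of low level also had high ratios. Krt4, a keratin of internal stratified epithelia, was at 18.7 CPM in Krt8-high cells, 3.52 CPM in Krt8-low cells and 0.36 CPM in Krt8-low control cells (log2 ratio 2.41, 2.16 to 2.65), and 158 of the 4350 cells held a Krt4 UMI. In Krt8-low cells 10 barcodes held 60.8% of the 217 Krt4 UMIs and 1 of them held 79, so that value rests on few barcodes. Atp6v1g3 was at 39.6, 7.02 and 0.41 CPM (2.50, 2.33 to 2.67), spread over 556 cells. Fbp1, an enzyme of glucose synthesis, was at 4.54, 0.67 and 0.10 CPM. The urokinase gene Plau (49.8 against 13.6 CPM) and the stromelysin gene Mmp3 (47.3 against 15.6 CPM) stood beside Mmp10, and Bmp4 (23.0 against 7.63 CPM) beside Bmp3. All of these ratios are from 1 library, with no replicate check.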
